A study of Mus musculus with 10 samples.

Results

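The transcripts of 39 genes of the actin machinery were followed in Trem2-deficient mouse microglia. They are a list of gene names, taken by name and not by a threshold on measured values, and cover actin itself, the proteins that nucleate, cap, cut and bundle actin filaments, the small GTPases that switch these proteins on, and the links from filaments to the membrane and to integrins. All 39 were found among the 24033 usable gene names of the deposited tables (Diaph1 under its synonym Diap1). All 39 also passed the filter on low values, a level of at least 0.5 RPKM in at least 3 libraries. RPKM is the number of reads per kilobase of gene and per library size in megareads, so it can be compared between genes. In 38 members the level was at least 0.5 RPKM in every library, and Gsn fell below that in wild-type library 4.

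The 10 libraries came from microglia of C57BL/6 mice aged 3 to 5 months, which had been pulled from tissue on magnetic beads that bind CD11b (an integrin subunit on myeloid cells). Wild-type mice (TREM2+/+) gave 4 libraries, numbered 1, 4, 7 and 10, of which 1 and 10 were female. Heterozygous mice (TREM2+/-) gave 3 libraries, with 5 and 11 female and 8 male, and knockout mice (TREM2-/-) gave 3, with 6 female and 9 and 12 male. No treatment is named. Whether a library holds 1 mouse or a pool is not stated, so p-values describe the spread among these libraries, part of which may be technical. The labels do not give the part of Trem2 that the knockout allele lacks.

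Microglia survey brain tissue by extending and retracting fine processes, move to sites of damage and engulf debris, and each of these acts is driven by the growth and turnover of actin filaments. Filaments grow from profilin-bound actin monomers, branch where the Arp2/3 complex sits on an existing filament, and are cut by cofilin and gelsolin. Arp2/3 is switched on by WASP and by the WAVE complex, which in turn answer to the GTPases Cdc42 and Rac. Trem2 is a lipid-binding receptor on microglia that signals through the adaptor DAP12 and the kinase SYK, a route that in myeloid cells feeds into Rac and the actin network.

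Trem2 checked the labels. Its level was 170, 185, 237 and 174 RPKM in wild-type libraries 1, 4, 7 and 10, then 105, 85.2 and 91.7 in heterozygous libraries 5, 8 and 11, and 28.3, 21.4 and 23.9 in knockout libraries 6, 9 and 12. The genotypes did not overlap, and the knockout differed from the wild type by -2.93 on the log2 scale (SE 0.14, limma adjusted p = 5.45e-06). Library depth ran from 17.61 to 45.03 megareads, as recovered from the RPKM steps, and fell into 6 shallower libraries (under 25 megareads) and 4 deeper ones (over 30 megareads: wild type 10, heterozygous 11, knockout 9 and 12). Defining markers of microglia were abundant in every library: P2ry12 stood at 1599 to 2274 RPKM, Cx3cr1 at 764 to 927 and Tmem119 at 418 to 634.5. Knockout library 6, the single female knockout, stood apart. Its neutrophil markers summed to 2290 RPKM, against 104 to 381 in the other 9 libraries, over 10 of 11 listed genes found in the tables, none of them at 0 throughout. Its monocyte markers summed to 236 RPKM against 54.0 to 87.5 over 10 of 10 genes. Neutrophil sums in knockout 9 and 12 were 372 and 381 RPKM. They too lay above the wild-type (104 to 223) and heterozygous libraries (143 to 358). Monocyte sums there, 81.2 and 82.0, lay above wild type (54.0 to 72.55) and inside the heterozygous range (60.5 to 87.5). Leaving out library 6 therefore does not bring the knockouts level with wild type in these markers. Choroid plexus markers summed to 782 to 2075 RPKM and were lowest in wild type 7 and highest in heterozygous 8. Many members are also active in neutrophils and monocytes. The main differences that rest on the knockout are therefore given with library 6 and again without it. The part of these other cells in the member levels was not tested, and in bulk RNA fewer cells of a type and less RNA per cell cannot be told apart.

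As a block, the actin genes were abundant and steady. Their levels summed to 6726 to 7190 RPKM per library and took 1.57% to 1.65% of its reads. Wild-type libraries reached a sum of 6851 ± 141 RPKM (SD, n = 4), heterozygous ones 6897 ± 244.5 (SD, n = 3) and knockout ones 7007 ± 238 (SD, n = 3). These means lay closer together than the SD of either mutant group. Of the 39 genes, 17 averaged at least 100 RPKM over the 10 libraries, 18 lay between 10 and 100, and 4 (Diaph1, Actg1, Capg and Gsn) lay under 10. Between its highest and its lowest library the median member varied 1.38-fold. For 27 members that ratio was under 1.5, and for 4 it was at least 2: Pfn1 (2.08), Coro1a (2.22), Capg (2.58) and Gsn (4.00). The median coefficient of variation across the 10 libraries was 9.05% for the members at or above 10 RPKM and 11.5% for the 5131 tested genes at that level, given as a description because members were picked by function and not matched for abundance.

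**Figure D1:**
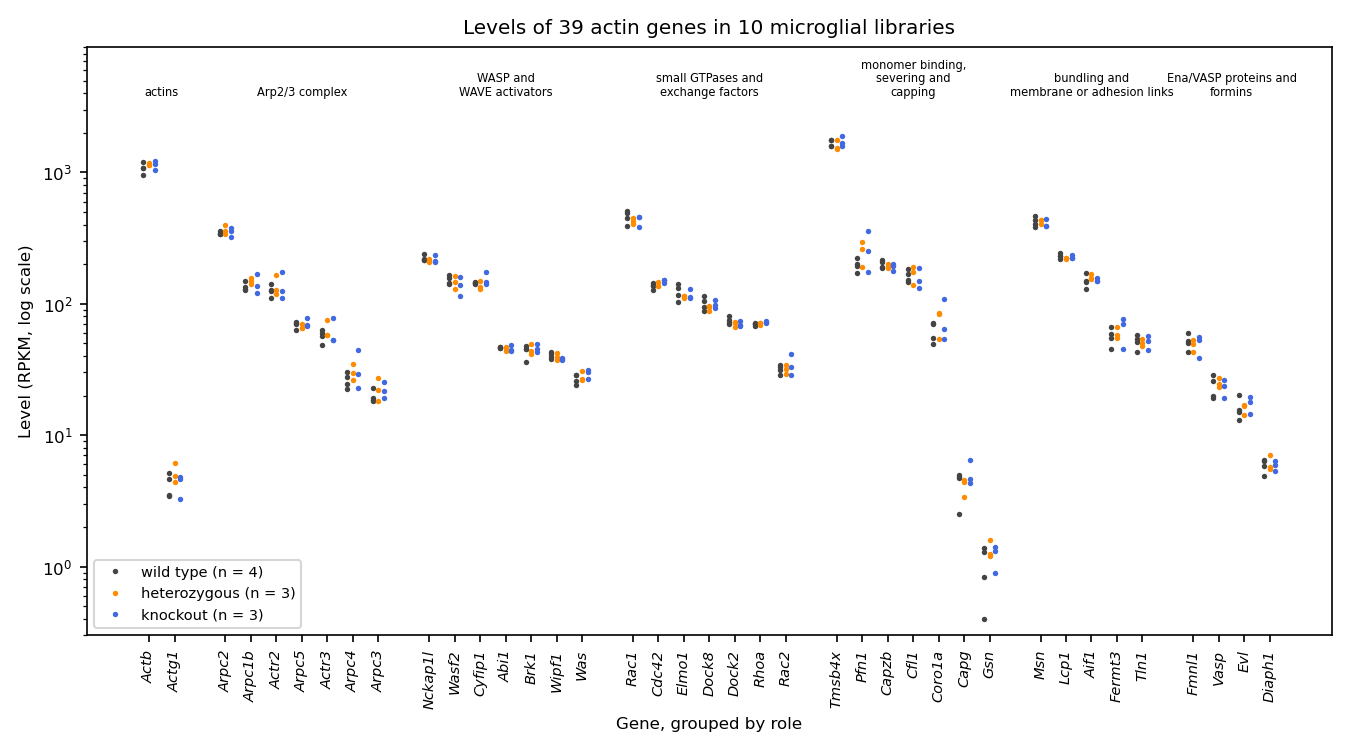
Level in RPKM on a log scale of the 39 actin genes, 1 point per library, grouped by role and coloured by genotype (4 wild-type, 3 heterozygous and 3 knockout libraries). The points of a gene lie close together whatever their colour, while genes span from 1.16 RPKM (Gsn) to 1670 RPKM (Tmsb4x) on average.

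The cytoplasmic actins beta (Actb) and gamma (Actg1) form the filaments of non-muscle cells. Actb (chromosome 5, 142903115 to 142906754 on the minus strand, GRCm38) stood at 1070.5, 951, 1080 and 1208 RPKM in wild-type libraries 1, 4, 7 and 10. It stood at 1138, 1137 and 1180 in heterozygous libraries 5, 8 and 11, and at 1035, 1162 and 1210 in knockout libraries 6, 9 and 12. The genotypes overlapped. Actg1 (chromosome 11, 120345690 to 120348542 on the minus strand) was listed at 4.64, 3.45, 3.49 and 5.15 RPKM in wild type, 4.88, 4.37 and 6.10 in heterozygous and 3.28, 4.60 and 4.81 in knockout libraries, in the same order of library numbers. These groups overlapped too. The mean of Actg1 was thus 4.48 RPKM beside 1117 for Actb.

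The listed level of Actg1 is uncertain, because most of its coding sequence also lies in other annotated genes. Over the coding region without the stop codon, 128 of 1125 bases differ between both actins (88.6% identity). Of all 50-base windows of the Actg1 coding region, 98.5% occur letter for letter, on either strand, in a gene elsewhere in GENCODE release M21. Windows of the whole Actg1 transcript matched 21 genes elsewhere, 12 of them annotated pseudogenes. For Actb the share of coding windows was 19.7%. The stretch from coding base 318 to 367 shows how both genes can be told apart from each other while 1 of them still matches copies elsewhere. Sequences are from the GENCODE M21 transcripts of GRCm38, 5′ to 3′ on the sense strand, with capitals for the 8 bases that differ.
Actb coding 318 to 367: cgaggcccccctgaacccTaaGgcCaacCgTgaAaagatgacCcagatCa
Actg1 coding 318 to 367: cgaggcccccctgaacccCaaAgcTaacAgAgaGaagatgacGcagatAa
The Actb stretch was found in 0 genes elsewhere and the Actg1 stretch in 7. It was picked for this contrast and is not a typical window. Among the coding windows with 0 matches elsewhere for Actb, it has the most for Actg1. Neither the read length nor the treatment of reads that match several places is stated, so how many Actg1 reads were left out or assigned to copies was not tested. The same limit applies, in falling order, to Actr3 (57.6% of coding windows shared), Rhoa (49.2%), Cfl1 (46.8%), Arpc1b (33.3%), Lcp1 (15.4%), Cdc42 (12.2%), Arpc5 (9.4%), Actr2 (2.3%), Was (0.5%) and Arpc2 (0.4%). Another 27 members shared no coding window. A separate limit is overlap on the genome, since it is not stated whether counting used strand: 55% of the windows of Rac1, 28.9% of Arpc1b and 21.4% of Cyfip1 lie in another gene annotated over the same positions.

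**Figure D2:**
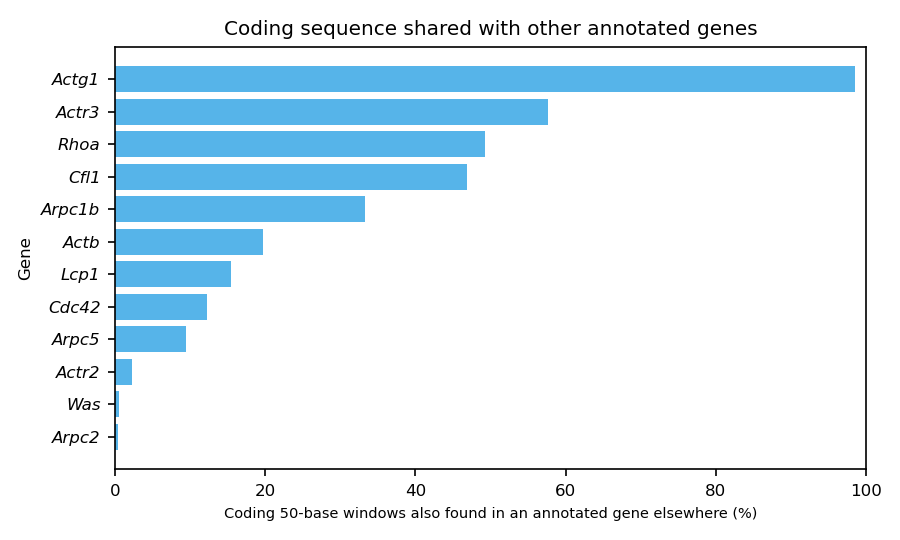
Share of 50-base coding windows, in percent, that occur letter for letter in an annotated gene elsewhere in the genome, for the 12 actin genes with any such window (1 bar per gene). Actg1 stands highest at 98.5%, ahead of Actr3 at 57.6%, and Actb is at 19.7%.

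The Arp2/3 complex grows a new filament as a branch from the side of an existing one and contains a single copy of each subunit. Its 7 listed subunits did not have equal transcript levels, from a mean of 21.2 RPKM for Arpc3 to 354 for Arpc2. Arpc2, part of the core that holds the mother filament, stood at 339, 339, 356 and 347 RPKM in wild type, 397.5, 358 and 342 in heterozygous and 380.1, 357 and 322.5 in knockout libraries. Those ranges overlapped. Actr2 and Actr3 encode the actin-related proteins that start the branch. Actr3 was at 56.4, 59.8, 48.9 and 62.9 RPKM in wild type, 74.8, 57.8 and 57.4 in heterozygous and 77.4, 53.2 and 52.9 in knockout libraries. Heterozygous 5 and knockout 6 were high, and the other 8 libraries lay between 48.9 and 62.9.

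WASP (Was), its partner WIP (Wipf1) and the WAVE complex turn Arp2/3 on. The WAVE complex is represented by Wasf2, Nckap1l, Abi1, Cyfip1 and Brk1. Nckap1l encodes the haematopoietic scaffold subunit of the complex and was the most abundant of this role, at 215, 215, 238 and 219 RPKM in wild type, 208, 210.4 and 218 in heterozygous and 212, 234 and 209 in knockout libraries. All 3 genotypes shared a range. Its partners in the complex averaged 145.8 RPKM (Wasf2), 145 (Cyfip1), 45.9 (Abi1) and 44.6 (Brk1), while Wipf1 averaged 39.4 and Was 27.9. Abi1 varied 1.12-fold over the 10 libraries, and Wipf1 and Nckap1l 1.14-fold and 1.15-fold.

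Upstream of these activators lie the GTPases Rac1, Rac2 and Cdc42. The same role group holds the GTPase Rhoa, the exchange factors Dock2 and Dock8, and Elmo1, a scaffold that works with Dock proteins. Rac1 was highest, at 450, 495, 509 and 393 RPKM in wild type, 426, 405 and 452 in heterozygous and 456, 457 and 383.5 in knockout libraries. The wild-type range held every mutant library except knockout 12, just below it. Rac2, the blood-cell form, averaged 32.5 RPKM. Rhoa, which drives contraction through its kinases, had the smallest range of all 39 members, 67.1 to 73.7 RPKM, a ratio of 1.10 between its highest and its lowest library.

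Tmsb4x, thymosin beta-4, holds actin monomers in reserve and was the most abundant member. It was at 1597.5, 1774, 1777 and 1597 RPKM in wild type, 1543.5, 1497 and 1763 in heterozygous and 1674, 1884 and 1595 in knockout libraries. The groups overlapped. Actb and Tmsb4x together made up 38.8% to 42.4% of the summed level of the 39 genes. Profilin (Pfn1), which delivers monomers to growing ends, averaged 232.5 RPKM, the capping subunit Capzb 195, cofilin (Cfl1) 162, and Coro1a, a coronin of blood cells that acts on branched filaments, 69.5. The listed genes of the gelsolin family were low here: Capg averaged 4.48 RPKM and Gsn 1.16, the latter from 24 to 182 recovered reads per library.

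Among the links to membrane and adhesion, moesin (Msn) joins filaments to the plasma membrane. Msn was at 433, 385, 404 and 463 RPKM in wild type, 407, 436 and 437.5 in heterozygous and 391, 390.0 and 443 in knockout libraries, with all groups overlapping. Lcp1, the leukocyte filament bundler plastin, averaged 227 RPKM, Aif1 (the microglial marker IBA1, an actin-bundling protein) 153, kindlin-3 (Fermt3), which activates integrins, 59.7, and talin (Tln1) 51.0. Formins and Ena/VASP proteins lengthen unbranched filaments. Fmnl1 led them, at 59.4, 42.6, 51.8 and 50.5 RPKM in wild type, 43.0, 52.9 and 49.7 in heterozygous and 38.9, 53.0 and 55.6 in knockout libraries. Here as well the genotypes overlapped. Vasp averaged 23.7, Evl 16.4 and Diaph1 5.93 RPKM.

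Loss of both Trem2 copies was compared with wild type to ask what full absence of the receptor does to these transcripts. By limma, 0 of the 39 members passed an adjusted p under 0.05, where 0.00734% of the 13621 tested genes did, a single gene, Trem2 itself. At an unadjusted p under 0.05 the members again numbered 0, against 5.13% of all genes. The lowest adjusted p of a member was 0.982 by limma. Log2 differences, knockout minus wild type on the log2(RPKM + 0.5) scale, ran from -0.17 (Wasf2) to 0.32 (Gsn), and without library 6 from -0.19 (Rac1) to 0.64 (Pfn1). Their median was 0.041, beside 0.03 over all genes, and leaving out 1 library moved it between 0.0069 (without knockout 12) and 0.083 (without wild type 10). They were positive for 23 members and negative for 16, beside 57.2% positive over all genes. That background is itself a matter of scaling: with each library divided by its median ratio to the others, 6804 of 13601 genes were positive, and the members split 22 to 17.

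The data limited how large a difference could have gone unseen. The 95% limma interval lay inside a 2-fold change in either direction for 39 of 39 members and inside a 1.5-fold change for 34, the exceptions being Arpc4, Capg, Coro1a, Gsn and Pfn1. Inside a 1.25-fold change it lay for 17. Wasf2, with the most negative estimate, had an interval from -0.42 to 0.08 on the log2 scale, and Actb from -0.18 to 0.34. Changes below these bounds were not resolved with 4 and 3 libraries. These counts and intervals include library 6. Without it the estimates were larger for Pfn1 (0.64, SE 0.21), Coro1a (0.53, SE 0.27), Gsn (0.46, SE 0.30) and Capg (0.42, SE 0.29). For these members the upper end of the 95% limma interval then lay past a 2-fold change. Actg1 (0.36, SE 0.18), Evl (0.33, SE 0.17), Fermt3 (0.44, SE 0.16) and Arpc3 (0.22, SE 0.19) then passed a 1.5-fold change at that end. The counts of 39, 34 and 17 therefore hold only with library 6 included.

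By role, 0 members passed the test in each of the 7 groups. The 7 Arp2/3 subunits all had positive differences (median 0.126), the monomer-binding, severing and capping group 5 of 7 (median 0.244), WASP and WAVE activators 3 of 7 (median -0.030), the GTPase group 3 of 7 (median -0.032), the bundling and adhesion group 2 of 5 and the Ena/VASP and formin group 1 of 4. These signs moved with library 6 and between depth classes, in values that carry no test of their own. Values within a depth class are plain differences of means, without the sex term of the fit. In the deeper class they set 2 male knockouts against 1 female wild type, so genotype and sex cannot be told apart there. Without knockout library 6, 4 of the 7 Arp2/3 subunits were positive (median 0.020). Within the 4 deeper libraries 1 of 7 was positive, and within the 6 shallower ones, where library 6 is the only knockout, 6 of 7. The monomer-binding, severing and capping group had 5 of 7 positive without library 6 (median 0.42), 6 of 7 within the deeper and 2 of 7 within the shallower libraries (median -0.091). For the GTPase group the counts were 3 of 7, 6 of 7 and 2 of 7, and for WASP and WAVE activators 3 of 7, 6 of 7 and 3 of 7. The Ena/VASP and formin group went to 4 of 4 without library 6 (median 0.163), with 2 of 4 within the deeper and 0 of 4 within the shallower libraries. The bundling and adhesion group had 4 of 5 without library 6 and 2 of 5 in either depth class. Both actins were positive without library 6, with 0 of 2 positive in the deeper and 1 of 2 in the shallower libraries. Across all members, 12 of 39 had the same sign in both depth classes.

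The member with the smallest p was Cdc42 (chromosome 4, 137319696 to 137357720 on the minus strand), the GTPase that starts filopodia and activates WASP. It stood at 128.1, 138, 135 and 143.9 RPKM in wild-type libraries 1, 4, 7 and 10, at 137, 137 and 147 in heterozygous libraries 5, 8 and 11, and at 152, 152 and 144.0 in knockout libraries 6, 9 and 12. Every knockout library lay above every wild-type one, though knockout 12 and wild type 10 differed by almost nothing, and the heterozygous libraries overlapped the wild type. The difference was 0.14 on the log2 scale (SE 0.08, interval -0.05 to 0.32, limma adjusted p = 0.982), and 0.12 without library 6 (SE 0.10). Cdc42 was the 1 member of 39 whose knockout libraries all lay above wild type, with 2.99% of all genes doing so. In the reverse direction there were 0 members, against 1.60% of genes.

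Pfn1 (chromosome 11, 70651850 to 70654644 on the minus strand) shared no coding window with other genes and varied most among the members at 100 RPKM or more. Its levels were 202, 172, 195 and 224 RPKM in wild type, 191, 262 and 294 in heterozygous and 176, 250.5 and 358 in knockout libraries. Knockout library 12 was the highest and wild type 4 the lowest, and knockout 6 lay beside the lowest wild type, so the groups overlapped. The log2 difference of knockout from wild type was 0.32 (SE 0.21, limma adjusted p = 0.991). As a plain difference of means, without the sex term, it was 0.42 within the deeper libraries (2 knockout, 1 wild type). Within the shallower ones (1 knockout, 3 wild type) it was -0.11.

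Of the remaining members nearest to the threshold, Wasf2, the WAVE subunit that binds Arp2/3, was at 164, 141, 157 and 144 RPKM in wild type and 115, 139 and 160.3 in knockout libraries. Libraries 6 and 9 lay below the wild-type range and 12 inside it (log2 -0.17, SE 0.11, limma adjusted p = 0.991), and without library 6 the difference was -0.054 (SE 0.13). Was stood at 28.5, 26.0, 23.9 and 28.6 RPKM in wild type and 26.8, 30.1 and 31.4 in knockout libraries. Here 6 was inside and 9 and 12 above the wild-type range (log2 0.15, SE 0.11, limma adjusted p = 0.991). Gsn was at 1.30, 0.399, 0.830 and 1.37 RPKM in wild type and 1.30, 1.40 and 0.897 in knockout libraries. Wild type 4 was the low library and the groups overlapped (log2 0.32, SE 0.24, limma adjusted p = 0.991; 0.46, SE 0.30, without library 6).

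Leaving out knockout library 6 left 0 of 39 members called (0.0222% of all genes) and raised the number at an unadjusted p under 0.05 from 0 to 4, all positive, beside 6.42% of all genes. These were Pfn1 (log2 0.64, SE 0.21), Arpc4 (0.55, SE 0.19), Fermt3 (0.44, SE 0.16) and Was (0.28, SE 0.11), with limma adjusted p from 0.731 to 0.772. Both knockout libraries that remain are male and deep, so this comparison cannot be told apart from one of depth except through wild type 10.

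**Figure D3:**
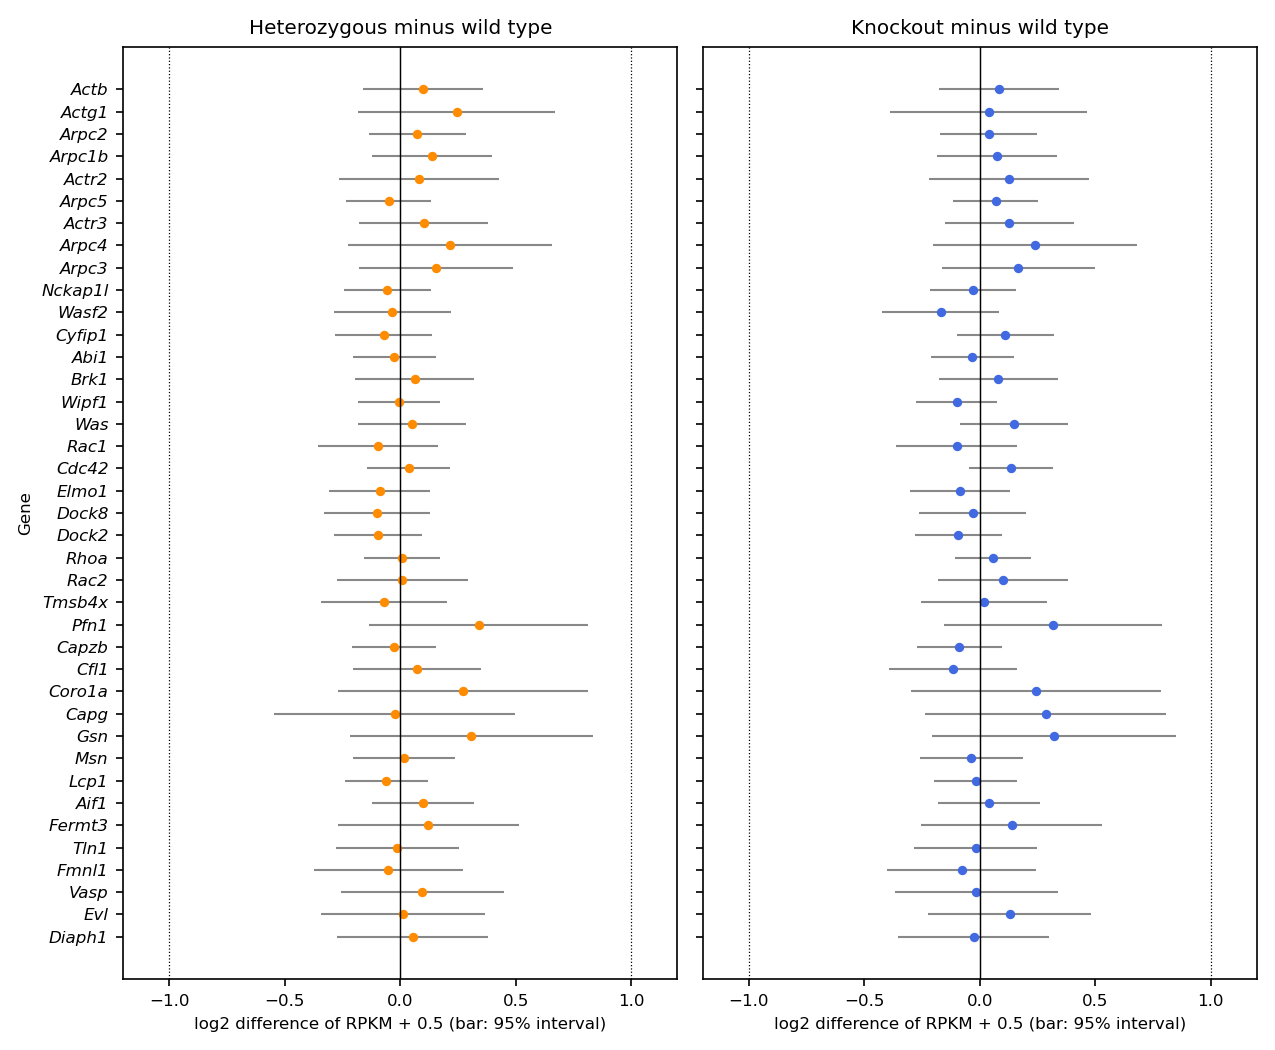
Log2 difference of heterozygous (left) and knockout (right) from wild-type libraries for each of the 39 actin genes, in log2(RPKM + 0.5) units, with limma's 95% interval as a bar and dotted lines at a 2-fold change. Each interval crosses 0 and each stays inside the dotted lines, and Gsn, Pfn1, Coro1a and Capg have wide bars.

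Loss of 1 copy is the comparison named in the title of the study. Against wild type, 0 of 39 members passed in heterozygous libraries, as did 0.00% of all genes, and 0 members had an unadjusted p under 0.05, against 2.75% of genes. Trem2 itself, at 49% of its wild-type level and without overlap, was among the genes not called (lowest adjusted p of any gene 0.238 by limma). A difference of that size was thus missed at this threshold. With 23 positive and 16 negative differences (50.3% positive over all genes) the member median was 0.016, beside 0.000987 over all genes, and leaving out 1 library moved it between -0.0065 (without wild type 4) and 0.066 (without wild type 10). Intervals lay inside a 1.5-fold change for 34 of 39 members, Actg1, Arpc4, Coro1a, Gsn and Pfn1 being the exceptions. By limma the smallest p values were those of Pfn1 (log2 0.34, SE 0.21), Gsn (0.31, SE 0.24), Actg1 (0.25, SE 0.19), Arpc1b (0.14, SE 0.12) and Dock2 (-0.10, SE 0.09), each with an adjusted p of 1.

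Arpc1b encodes the form of its Arp2/3 subunit that prevails in blood cells. It was at 129, 126, 135 and 150.3 RPKM in wild type, 157, 142 and 149.9 in heterozygous and 137, 121 and 169 in knockout libraries. The heterozygous libraries lay in the upper part of the wild-type range or just over it, and the knockout libraries spanned all of both. Dock2, a Rac exchange factor of blood cells, was at 80.8, 70.6, 73.2 and 75.4 RPKM in wild type, 71.5, 72.0 and 67.0 in heterozygous and 67.2, 74.3 and 69.0 in knockout libraries. The highest value, in wild type 1, stood apart from 9 libraries between 67.0 and 75.4. In 0 members did heterozygous and wild-type libraries fail to overlap, whereas 2.23% of all genes were higher and 2.30% lower without overlap.

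Knockout and heterozygous libraries were compared for the loss of the remaining copy. By limma 0 of 39 members passed (0.00734% of all genes, again Trem2 alone). As few, 0, had an unadjusted p under 0.05, against 3.35% of genes. The member median was 0.0036, beside 0.0279 over all genes. Positive members numbered 21 and negative ones 18, beside 57.1% positive over all genes. That split became 12 to 27 when libraries were scaled by their median ratio, where the median of all genes moved to -0.0035, and 28 to 11 without knockout library 6 (57.5% positive over all genes), so no direction can be read from it. Intervals inside a 1.5-fold change numbered 35 of 39 with library 6 included, and this count was not remade without it. No member had knockout libraries all above or all below the heterozygous ones (0 of 39), where 4.40% of all genes were higher and 3.02% lower in this way.

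Cyfip1, the WAVE subunit that receives the Rac signal, had the smallest p of this comparison. It was at 150.2, 135 and 129 RPKM in heterozygous libraries 5, 8 and 11, and at 175, 147 and 141 in knockout libraries 6, 9 and 12, next to 140.3 to 146 in wild type. Library 6 was the high one, and the groups overlapped (log2 0.18, SE 0.10, limma adjusted p = 0.999). Without library 6 the difference was 0.06 (SE 0.12). Cfl1, the main filament-severing protein, was at 139, 174 and 191 RPKM in heterozygous and 131, 148 and 187 in knockout libraries, with 147.5, 185, 167 and 153 in wild type. Its groups overlapped over most of their range (log2 -0.19, SE 0.14, limma adjusted p = 0.999), with -0.12 (SE 0.17) without library 6.

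Capg and Arpc5 completed the members nearest to the threshold here. Capg, a gelsolin-like capping protein, was at 3.39, 4.56 and 4.40 RPKM in heterozygous and 4.65, 4.32 and 6.49 in knockout libraries, with knockout 12 high and the others overlapping (log2 0.31, SE 0.26, limma adjusted p = 0.999), and 0.46 (SE 0.32) without library 6. Arpc5 was at 70.0, 63.1, 72.2 and 71.0 RPKM in wild type, 65.7, 65.6 and 70.6 in heterozygous and 78.0, 69.4 and 67.6 in knockout libraries. Knockout 6 was highest and the rest overlapped (log2 0.12, SE 0.09, limma adjusted p = 0.999), and 0.065 (SE 0.12) came out without knockout 6. Cdc42 differed by 0.10 (SE 0.09), or 0.088 (SE 0.12) without that library.

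Male and female libraries, 5 each, were compared in the same fit. No member passed (0 of 39, beside 0.0440% of all genes, lowest member adjusted p = 0.919 by limma). An unadjusted p under 0.05 was reached by 2 members, Actr3 and Elmo1, a share near the 5.34% of all genes. Libraries of both sexes overlapped for all 39 members, where 0.338% of all genes were higher and 0.565% lower in males without overlap. Member differences split 19 positive to 20 negative for male minus female (43.3% positive over all genes), 25 to 14 after median-ratio scaling, and 12 to 27 without knockout 6. The 3 members on the X chromosome had small differences: Tmsb4x 0.04 (SE 0.11), Msn -0.04 (SE 0.09) and Was -0.06 (SE 0.09).

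Actr3 (chromosome 1, 125392905 to 125435727 on the minus strand) had the smallest p by sex. Female libraries 1, 10, 5, 11 and 6 held 56.4, 62.9, 74.8, 57.4 and 77.4 RPKM, and male libraries 4, 7, 8, 9 and 12 held 59.8, 48.9, 57.8, 53.2 and 52.9. The sexes overlapped, and 2 female libraries, 5 and 6, carried the highest values (log2 -0.26, SE 0.11, limma adjusted p = 0.919). Without library 6 the difference for Actr3 was -0.15. Elmo1, the scaffold that pairs with Dock proteins to activate Rac during engulfment, was at 116, 103, 110.1, 114 and 110.5 RPKM in females and 142, 132, 114, 130.5 and 113 in males. Males 4, 7 and 9 were above all females and males 8 and 12 among them (log2 0.19, SE 0.08, limma adjusted p = 0.919).

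Next in order by limma were Cfl1 (male minus female log2 0.22, SE 0.11), Gsn (-0.41, SE 0.20) and Capzb (0.12, SE 0.07), with adjusted p of 0.921, 0.921 and 0.922. Capzb was at 189, 187, 187, 201 and 176 RPKM in females 1, 10, 5, 11 and 6 and at 217, 207, 191.5, 200.3 and 195 in males 4, 7, 8, 9 and 12, so the sexes overlapped. Whether the genotype effect itself differed by sex was tested as an interaction. For the knockout effect 0 members were called by limma (0.0147% of all genes) and 11 of 39 had an unadjusted p under 0.05, where 14.9% of all genes did. Every female knockout value in that test is library 6, and every male heterozygous value in the next one is library 8. For the heterozygous effect 0 members were called (0.00734% of all genes) and 2 had an unadjusted p under 0.05, against 10.5% of genes.

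What varied among the actin genes ran across genotypes, as a pattern between libraries. In a principal component analysis of the members' log2 values, the first axis held 52.8% of their variance and the second 16.4%. Scores on the first axis were -1.10 for wild type 4, -0.97 for knockout 6, -0.77 for wild type 7 and -0.58 for heterozygous 5, then 0.14 for knockout 9, 0.19 for wild type 1, 0.44 for wild type 10, 0.53 for heterozygous 8, 0.71 for heterozygous 11 and 1.42 for knockout 12. Each genotype had libraries on both sides of 0, and the knockouts spanned nearly the whole axis. The 4 deeper libraries were all positive, and of the 6 shallower ones 4 were negative.

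The axis set Coro1a (loading 0.43), Pfn1 (0.39), Arpc4 (0.33) and Fermt3 (0.26) against Actr2 (-0.20), Rac1 (-0.12) and Actr3 (-0.11), genes that were singled out after their values were seen. Coro1a was at 71.2, 49.2, 54.8 and 69.8 RPKM in wild type, 53.6, 84.5 and 83.8 in heterozygous and 54.1, 64.3 and 109 in knockout libraries. Actr2 ran the other way, at 111.5, 142, 126 and 125 RPKM in wild type, 166, 118 and 127 in heterozygous and 175, 125 and 111 in knockout libraries. Within the knockouts, library 12 was above library 6 by 1.00 on the log2 scale for Coro1a and 1.02 for Pfn1, and below it by -0.65 for Actr2.

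Base composition moved with this pattern. Across the 39 members, the loading rose with the GC content of the transcript (Pearson r 0.77, Spearman rank correlation 0.80), given as a description because all members share the same libraries. All 10 members above 55% GC had positive loadings, and 10 of the 12 under 48% GC had negative ones. Within a library, the members' deviation from their mean correlated with GC at r = 0.62 in knockout 12 and r = -0.66 in knockout 6. The same measure over 11974 tested genes with a known GC content was 0.30 and -0.25. In wild type 4 it was -0.58 over members and -0.27 over all genes, in wild type 1 0.48 and 0.21, and in heterozygous 8 0.60 and 0.19. In the remaining 5 libraries the members tilted while the wider set stayed between -0.08 and 0.10: knockout 9 had 0.23 and -0.08, heterozygous 5 had -0.50 and -0.05, and heterozygous 11 had 0.34 and 0.07. The values were -0.37 and -0.05 in wild type 7, and 0.44 and 0.10 in wild type 10. Malat1, a nuclear RNA, was at 6898, 7693 and 7818 RPKM in wild type 4, heterozygous 5 and knockout 6, which all score below 0, and at 5284 to 5871 in the other 7 libraries. The part of GC content, RNA quality or depth in the member values was not tested.

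**Figure D4:**
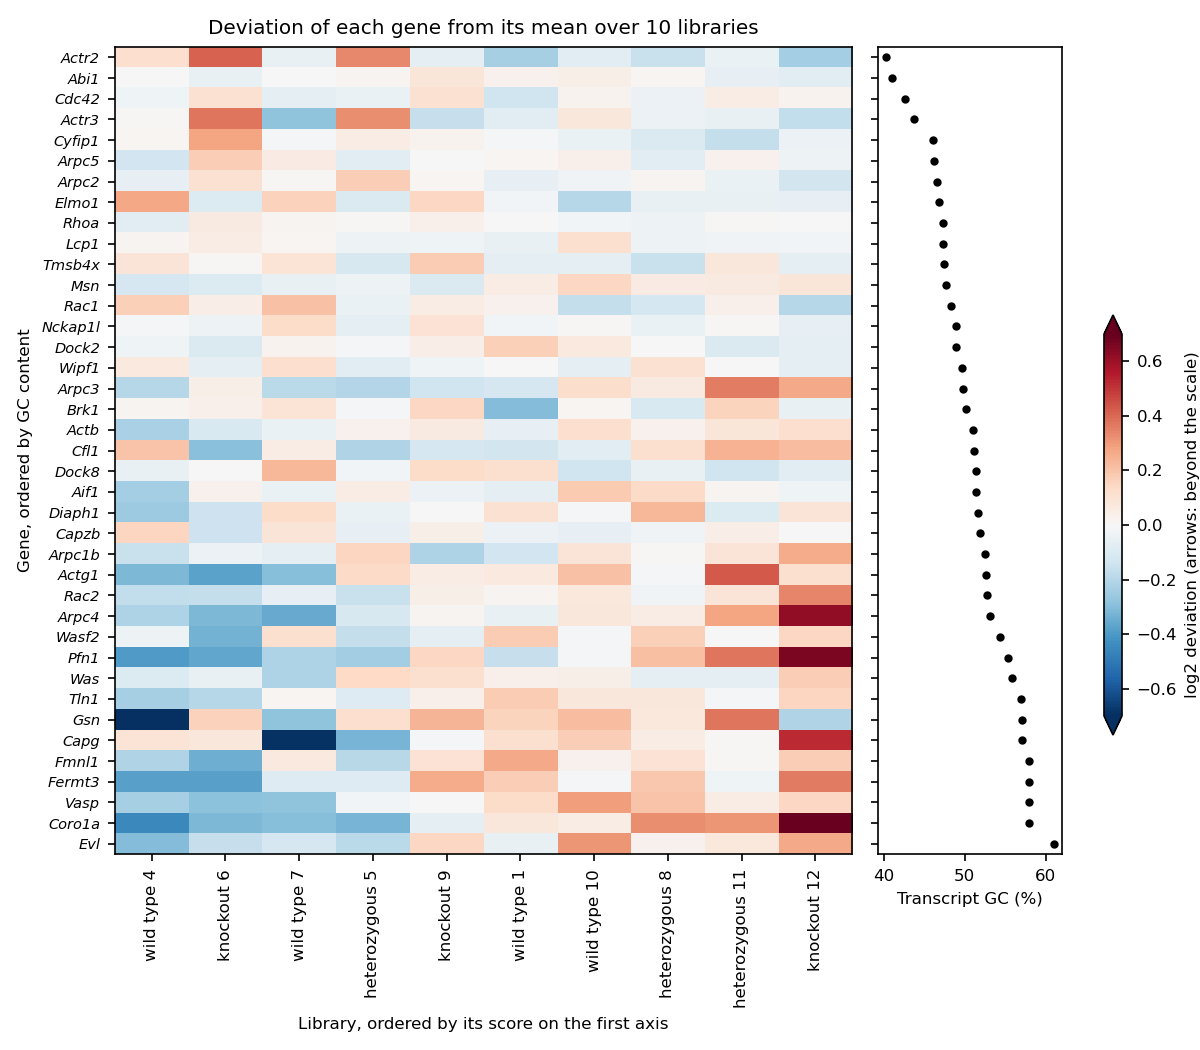
Deviation of each actin gene (rows, from low to high transcript GC) from its own mean over 10 libraries, as log2, with libraries (columns) ordered by their score on the first axis, and GC in percent at right. Most rows of high GC turn from blue at left to red at right, and libraries of the 3 genotypes are mixed along the order.

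Depth was examined as a term of the fit, chosen after the data had been seen. Between deeper and shallower libraries limma called 0 of 39 members (0.00% of all genes). An unadjusted p under 0.05 was reached by 5 members, against 7.22% of genes. All 5 were higher in the deeper libraries: Pfn1 by 0.47, Arpc4 by 0.41, Actg1 by 0.39, Evl by 0.34 and Rac2 by 0.23 on the log2 scale. With that term in the model, 0 of 39 members were called for knockout against wild type (0.0147% of all genes), heterozygous against wild type (0.00%), knockout against heterozygous (0.00734%) and male against female (0.0367%).

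Promoter sequence was examined for what the members share. The RefSeq table held 33 of the 39 (GRCm38.p6), and the 250 bases before the start were searched on both strands. Actb, Cyfip1, Diaph1, Nckap1l, Rac1 and Rac2 had no entry and were not searched, so the motifs of their promoters are not known here. The CArG box, the site of serum response factor, which is known for driving actin genes, was found in 2 of 33 members (6.1%, beside 1.6% of 27025 genes). Both matches are shown as the members that hold this motif, from base 250 to base 51 before the start, 5′ to 3′ along the gene and with the box in capitals.
Actg1, chr11:120348546-120348745, minus strand: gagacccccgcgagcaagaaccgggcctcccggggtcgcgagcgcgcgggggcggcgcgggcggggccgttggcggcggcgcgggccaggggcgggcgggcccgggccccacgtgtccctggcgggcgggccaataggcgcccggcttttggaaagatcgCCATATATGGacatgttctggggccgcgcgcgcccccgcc
Arpc4, chr6:113377863-113378062, plus strand: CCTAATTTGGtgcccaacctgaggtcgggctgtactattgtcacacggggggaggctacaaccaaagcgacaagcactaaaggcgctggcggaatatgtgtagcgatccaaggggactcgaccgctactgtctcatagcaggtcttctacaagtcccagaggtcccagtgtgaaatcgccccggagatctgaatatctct
The box begins 90 bases before the start in Actg1 and 250 bases before it in Arpc4. GGGCGG, the GC box bound by SP1-type factors, was in 21 of 33 members (63.6%, beside 35.4% of all genes), and CCGGAAG, a core of ETS-factor sites, in 8 (24.2%, beside 7.8%). TATAAA, the TATA box, was in 2 (6.1%, beside 14.3%). These are matches of letters in a fixed window and were not set against the members' behaviour. The 27025 genes were not limited to those expressed here, while every member passed the filter on low values. The shares are thus not matched for expression.

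Another 96 genes of the same pathway were listed by function, of which 95 were tested. By limma 0 of the 95 were called in each of the 4 comparisons, and their medians were 0.028 for knockout, -0.0092 for heterozygous, 0.019 for knockout against heterozygous and 0.0016 for male against female. The smallest p for the knockout was that of Arhgdib, the inhibitor that keeps small GTPases soluble in blood cells. It was at 265, 240.5, 311 and 308 RPKM in wild type, 307, 313 and 323 in heterozygous and 374, 321 and 323 in knockout libraries. The knockout libraries were all above the wild type, library 6 by the most, and 2 of the heterozygous ones were too (log2 0.29, SE 0.11, limma adjusted p = 0.942; 0.22, SE 0.14, without library 6). Over all genes, 2.99% had every knockout library above every wild-type one.

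For the heterozygous comparison it was Coro2a, a coronin, at 12.4, 11.1, 13.5 and 10.8 RPKM in wild type, 9.07, 10.6 and 9.86 in heterozygous and 10.4, 10.0 and 9.91 in knockout libraries. All 6 mutant libraries were under the lowest wild type (log2 -0.26, SE 0.12, limma adjusted p = 1). Of all genes, 2.30% were lower without overlap in heterozygous and 1.60% in knockout libraries, and Coro2a was named for its p. For knockout against heterozygous it was Iqgap1, a scaffold of Cdc42 and Rac1, at 14.4, 16.6 and 13.5 RPKM in heterozygous and 20.6, 16.2 and 15.9 in knockout libraries, where 6 stood above the rest (log2 0.25, SE 0.14, limma adjusted p = 0.999; 0.085, SE 0.16, without library 6). By sex it was Fmnl3, a formin of filopodia, at 85.7 to 95.1 RPKM in females and 91.0 to 112.8 in males, which overlapped (log2 0.21, SE 0.08, limma adjusted p = 0.919).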

How the data were processed

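The authors deposited 1 table of RPKM values per library. The submitters' processing notes name STAR, HTSeq, edgeR, limma and the build mm10; their versions and order and the annotation are not stated there. Each table lists 24060 names, of which 27 had become dates and were left out. Whole reads were recovered from the RPKM steps for 19983 of 19983 names above 0 (largest distance 0.0003 read), and their totals are the depths given.

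Values were tested as log2(RPKM + 0.5) with limma 3.58.1 in R 4.3.3 (trended variance, genotype and sex as terms, all 10 libraries, two-sided), on the 13621 genes that reached 0.5 RPKM in 3 or more libraries. Benjamini-Hochberg adjustment ran over all of them, and an adjusted p under 0.05 was called. Fold changes on this scale understate those of low genes.

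Members, roles, the pathway list and markers were chosen with earlier results of these data known. Named genes are, per comparison, the 5 members with the smallest p, the most abundant member of each role, and the pathway gene with the smallest p. The alternatives were pseudocounts of 0.1 and 1, other filters, median-ratio scaling, no sex term, sample weights, limma-voom on recovered reads and leaving out each library. A term for the deeper libraries was added after the data were seen. Coordinates are from GENCODE M21 (GRCm38), which may not be the authors' annotation.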

Additional observations from a re-analysis of the deposited data

Results flagged for a closer look

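Of the 39 members, each examined in the 4 wild-type libraries for a value far from the others, 1 stood out, where chance gives about 1 in 20. Capg, the gelsolin-like capping protein, was at 2.515 RPKM in wild-type library 7, against 4.71 to 4.99 in wild type 1, 4 and 10. The gap made up 0.888 of the group's range, above the critical value of 0.829 for 4 libraries. Knockout and heterozygous groups, with 3 libraries each, were not examined in this way.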

How the results depend on the processing

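In all settings run, 0 members and 0 other pathway genes were called in each of the 4 comparisons. Genes called for knockout against wild type were 2 with sample quality weights, 2 with limma-voom, 2 with the deeper-library term, and 1 to 3 leaving out 1 library (3 without knockout 6). Members at an unadjusted p under 0.05 were 0 to 4 there (4 without knockout 6). For heterozygous against wild type, limma-voom called 1 gene, Trem2 (log2 -1, adjusted p = 0.0326; 0.0326 to 1 over all settings). For knockout against heterozygous, 1 member, Cyfip1, had an unadjusted p under 0.05 with the deeper-library term (log2 0.24, limma adjusted p = 0.999), and the member median ran from -0.0206 to 0.06 leaving out 1 library, the latter without knockout 6. For male against female, 0 to 3 members had an unadjusted p under 0.05 leaving out 1 library, 0 without heterozygous 5, wild type 7 or wild type 10, and 1 without knockout 6, 9 or 12. Among single members, Pfn1 for knockout against wild type ran from 0.088 (without knockout 12) to 0.64 (without knockout 6), and for heterozygous against wild type from 0.18 (without heterozygous 11) to 0.49 (without heterozygous 5). These and the rest, 1257 values, kept their direction and side of the threshold or moved less than their spread. That number includes the mean level of each member per genotype with 1 library left out, set against the SD of its group. Leaving out 1 of 3 or 4 libraries cannot move a mean by a whole SD. That part of the number was therefore fixed in advance and says nothing about stability. No paired analysis was run, because the labels name no pairing of libraries across genotypes. Library numbers run in sequence through the genotypes, and whether neighbouring numbers were handled together is not stated. With 3 or 4 libraries per genotype, changes under about 1.5-fold were not resolved for every member, and low counts limit Gsn.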
